A study of Mus musculus with 18 samples.

Results

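The genes described here are 37 genes of sterol and fatty acid synthesis, listed by name: 18 enzymes of the mevalonate and cholesterol pathway, 5 genes of the SREBP system that controls them, 11 genes that make, elongate or desaturate fatty acids, and 3 genes of sterol transport and efflux. They were found by symbol among 21631 mouse protein-coding genes, and the measure was the percent of each gene body covered by peaks of H3K79me2. H3K79me2 is dimethylation of lysine 79 of histone H3, the product of the methyltransferase DOT1L, and the series asked what DOT1L does in T helper cells. Its peaks were mapped on build mm10 in 9 libraries, 3 each from naive, Th1 and Th2 cells. The 9 input libraries have no peak list and were not used.

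All libraries are labelled with the genotype WT. Naive cells were sorted straight from spleens of WT mice as CD44- CD62L+ cells. Th1 cells grew for 4 days on plate-bound antibodies to CD3 and CD28, with anti-IL-4 and the cytokines IL-12 and IL-2, and were sorted for YFP in IFNg-YFP reporter mice. Th2 cells grew for 4 days on the same plate-bound antibodies, with anti-IFNg and the cytokines IL-4 and IL-2, and were sorted for the AmCyan reporter of IL-4 or the dsRed reporter of IL-13. Stimulation, culture, sorting gate and mouse line therefore cannot be told apart from cell type between naive and cultured cells. Between Th1 and Th2 cells the added cytokines and antibodies, the reporter and the sorting gate cannot be told apart from cell type either. Whether the libraries of a group stem from different animals is not stated in the labels. The p-values therefore measure only how far libraries differ from each other, a spread that may be technical. In bulk cells, a shorter domain in every cell and a domain present in fewer cells cannot be told apart.

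Sterols are built from acetyl-CoA through mevalonate, isoprenoids, squalene and lanosterol, and the same acetyl-CoA feeds fatty acid synthesis. When membrane cholesterol is low, SCAP carries the SREBP transcription factors out of the endoplasmic reticulum to be cut and released, and the INSIG proteins hold them back when sterols are plentiful. LXR receptors act on the other side and raise efflux genes such as Abca1 and Abcg1. Dividing T cells are known to need lipid synthesis for new membrane. H3K79me2 lies along transcribed genes, starting near the promoter and running into the gene body, and its cover is a record of chromatin state, not of RNA.

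Promoter sequences are shown for the 6 genes with a called difference (the rule is given with the comparisons) that had an entry in the RefSeq promoter table (assembly GRCm38.p6, which mm10 is built on), and for Hmgcs1, which was added after its motif was seen. Each window runs from 250 bases before to 50 bases after the annotated start, 5′ to 3′ on the gene's strand. Capitals mark matches on either strand to CCAAT, printed as its reverse complement where it lies on the opposite strand, the box read by NF-Y, a usual partner of SREBP, and to TCACNCCAC, a sterol regulatory element.
Acss2: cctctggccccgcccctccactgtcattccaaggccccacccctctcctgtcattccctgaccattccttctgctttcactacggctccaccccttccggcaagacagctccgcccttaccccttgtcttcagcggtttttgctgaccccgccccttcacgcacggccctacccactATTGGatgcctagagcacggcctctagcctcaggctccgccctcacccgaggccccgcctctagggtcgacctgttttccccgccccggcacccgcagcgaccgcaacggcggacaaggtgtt
Lss: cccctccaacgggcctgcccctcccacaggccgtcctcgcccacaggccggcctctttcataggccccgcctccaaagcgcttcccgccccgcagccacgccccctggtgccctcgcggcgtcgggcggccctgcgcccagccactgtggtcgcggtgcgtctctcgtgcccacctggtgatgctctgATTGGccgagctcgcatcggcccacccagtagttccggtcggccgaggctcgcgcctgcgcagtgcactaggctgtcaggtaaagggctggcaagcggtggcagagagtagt
Sc5d: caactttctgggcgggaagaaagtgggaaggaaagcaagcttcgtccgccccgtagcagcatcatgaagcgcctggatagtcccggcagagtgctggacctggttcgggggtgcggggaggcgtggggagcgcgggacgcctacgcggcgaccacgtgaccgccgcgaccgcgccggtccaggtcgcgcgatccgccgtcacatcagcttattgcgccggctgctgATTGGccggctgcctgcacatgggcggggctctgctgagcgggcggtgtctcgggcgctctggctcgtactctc
Fads2: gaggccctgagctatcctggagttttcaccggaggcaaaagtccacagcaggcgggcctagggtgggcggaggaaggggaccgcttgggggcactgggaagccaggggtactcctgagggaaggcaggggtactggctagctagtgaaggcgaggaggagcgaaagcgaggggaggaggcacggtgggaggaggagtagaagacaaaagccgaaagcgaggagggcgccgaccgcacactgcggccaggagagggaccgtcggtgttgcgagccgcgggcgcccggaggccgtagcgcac
Acly: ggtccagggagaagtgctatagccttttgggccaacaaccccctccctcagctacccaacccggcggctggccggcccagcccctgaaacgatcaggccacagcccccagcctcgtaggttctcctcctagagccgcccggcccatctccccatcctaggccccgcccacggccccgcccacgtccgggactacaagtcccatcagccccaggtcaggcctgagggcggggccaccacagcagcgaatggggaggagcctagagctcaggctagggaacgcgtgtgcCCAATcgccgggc
Hsd17b7: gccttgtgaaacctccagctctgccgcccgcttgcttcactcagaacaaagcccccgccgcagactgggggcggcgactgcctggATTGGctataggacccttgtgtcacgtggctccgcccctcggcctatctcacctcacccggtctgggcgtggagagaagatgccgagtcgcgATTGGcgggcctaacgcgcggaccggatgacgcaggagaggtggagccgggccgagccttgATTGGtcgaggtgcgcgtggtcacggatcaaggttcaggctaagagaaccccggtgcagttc
Hmgcs1: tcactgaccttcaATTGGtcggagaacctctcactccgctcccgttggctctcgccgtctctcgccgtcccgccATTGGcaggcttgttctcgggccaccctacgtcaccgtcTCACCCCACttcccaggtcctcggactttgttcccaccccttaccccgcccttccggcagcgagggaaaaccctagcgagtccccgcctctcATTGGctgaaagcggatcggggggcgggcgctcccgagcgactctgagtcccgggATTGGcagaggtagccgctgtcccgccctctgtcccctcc

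These windows lie at chr2:155517793-155518092 on the + strand for Acss2, chr10:76531355-76531654 on the + strand for Lss and chr9:42264251-42264550 on the - strand for Sc5d. They lie at chr19:10101454-10101753 on the - strand for Fads2, chr11:100527951-100528250 on the - strand for Acly, chr1:169969156-169969455 on the - strand for Hsd17b7 and chr13:119690101-119690400 on the + strand for Hmgcs1. The table held 38 windows for 29 of the 37 genes. CCAAT, searched on both strands, was found for 23 of those 29 genes (79.3%) and for 42.7% of the 17244 protein-coding genes with a window. Hsd17b7 had 3 matches, Hmgcs1 4 and Fads2 none. TCACNCCAC was found in Hmgcs1 alone among the 29 genes, with its first base at position -137 from the start, against 1.43% of all genes with a window. TCACGTGA, an E-box form of the SREBP site that does not overlap the other motifs, was in 0 of 29 genes and again in 1.43% of all genes. A match of letters is a description and not a site of binding.

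The lists differed in extent. Naive lists held 38026 to 40455 peaks, Th1 lists 41504 to 46085 and Th2 lists 45894 to 51854. The length under peaks was 279.98 ± 4.68 Mb for naive, 226 ± 12.2 Mb for Th1 cells and 240.3 ± 8.93 Mb for Th2 cells (SD, n = 3 each). The exact 2-sided permutation p was 0.1 for each difference from naive, the smallest that 3 against 3 libraries can give. Read depth is not in the lists and is unknown. At most 1 peak had identical coordinates in any 2 libraries.

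The labels were compared with marker genes. The 9 T cell genes (Cd3e, Cd4, Lck and others) were covered over at least 80.02% of their length in every library, and Ifng was covered fully in the Th1 libraries and Il4 and Il13 in the Th2 libraries. Some Th1 libraries also had cover on Il4 (47.1, 0 and 21.8%) and Il13 (43.6, 0 and 9.17%), and Th2 libraries on Cxcr3 (83.2, 25.3 and 77.1%), a Th1 marker. Tbx21, the Th1 master factor, was covered over 100% in Th1 cells and also over 99.9% ± 0.16 in Th2 cells (SD, n = 3), and was at 0 in naive cells. Cd8a and Cd8b1 were covered over 100% in every naive library. Their mean per library was 3.77 to 5.93% in Th1 and 12.4 to 19.6% in Th2 libraries. Among genes that mark B cells, Blk, Pax5 and Ms4a1 were at 0 in all libraries and Cd79a was at 100%. Of 5 myeloid genes, 4 were at 0 throughout, and the list mean was 1.44 to 2.1% in naive, 0.27 to 0.302% in Th1 and 0% in Th2 libraries. The 3 NK cell genes averaged 0% in naive, 27.3 to 32.1% in Th1 and 0.334 to 0.714% in Th2 libraries, with Ncr1 at 0 throughout and Klre1 setting the Th1 value. The 3 erythroid genes averaged 2.75 to 5.51%, 7.37 to 10.2% and 7.37 to 15.2% in naive, Th1 and Th2 libraries, with Hbb-bs at 0. A difference in CD8 T cell content between naive and cultured libraries cannot be told apart from cell type. The part of other cells, CD8 T cells among them, in the differences below was not tested.

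Comparing Th1 and Th2 cells each with naive cells asks how the mark over these genes differs between naive and cultured cells. In Th1 cells the cover of Sqle, Lss, Sc5d, Scd1, Fads2 and Stard4 rose and that of Acly, Acss2 and Abcg1 fell. In Th2 cells the cover of Fdft1, Sqle, Lss, Hsd17b7, Scd1, Fads2 and Stard4 rose and that of Acly and Acss2 fell. The risers of both cell types include Sqle and Lss, consecutive enzymes between squalene and lanosterol, the desaturases Scd1 and Fads2, and the sterol carrier Stard4. The fallers Acly and Acss2 are the enzymes that make cytosolic acetyl-CoA from citrate and from acetate. A gene was called, and is said to have risen or fallen, at a Benjamini-Hochberg adjusted p under 0.05 in limma over 11600 genes provided that the means also lay 25 percentage points or more apart. Of the 37 genes 36 entered the test, since Elovl1 was covered over 100% in all 9 libraries.

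Beside these counts stand those of all genes. In Th1 against naive cells 6 of 36 listed genes were called higher and 3 lower, where 4.38% of all 11600 genes were called higher and 16.3% lower. The median difference was 2.75 points over the listed genes and -5.54 points over all genes. In Th2 against naive cells 7 of 36 were called higher and 2 lower, with 4.26% of all genes higher and 15.4% lower, and medians of 3.56 and -5.50 points. With no minimum difference, 18 listed genes were higher and 7 lower in Th1 cells, where all genes gave 11.8% and 47.9%. The same rule gave 15 higher and 10 lower in Th2 cells, where all genes gave 12.1% and 47.4%. The 2 comparisons share the naive libraries and are not independent. The genes were chosen with earlier results of these data known, so no test of the list as a whole is given.

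**Figure D1:**
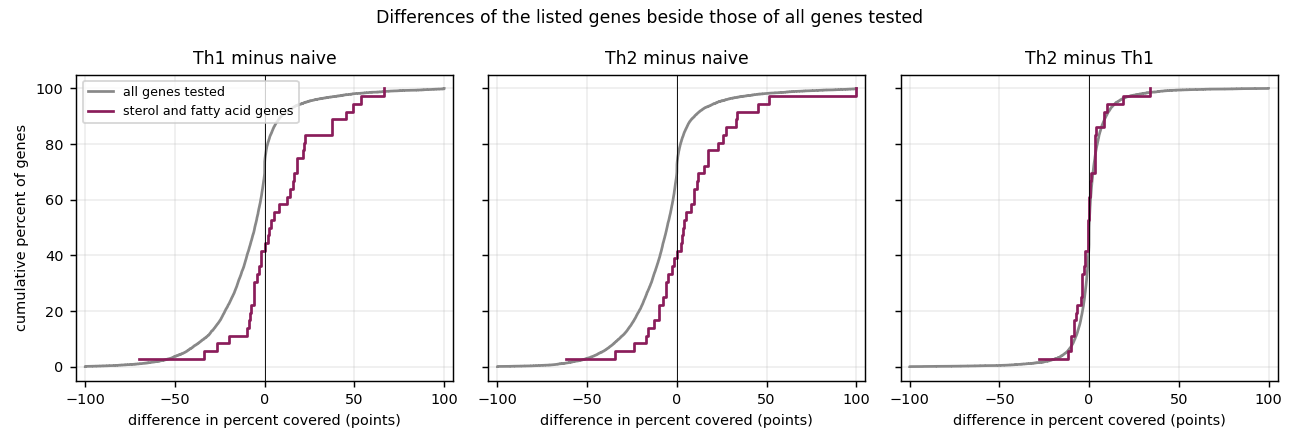
Cumulative percent of genes (vertical axis) against the difference in percent of the gene body covered, in points (horizontal axis), for the 36 tested sterol and fatty acid genes and for all 11600 genes tested, 1 panel per comparison. The line of the listed genes lies to the right of that of all genes over most of its range in the panels against naive cells, with medians of 2.75 and 3.56 points against -5.54 and -5.50, and close to it for Th2 minus Th1.

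These counts depend on how the larger covered length of the naive lists is treated. When each library was centred to a common mean over the tested genes, differences from naive shifted by 8.24 points in Th1 cells and 7.69 points in Th2 cells. The calls of listed genes then became 11 higher and 2 lower in Th1 cells and 10 higher and 2 lower in Th2 cells. A negative difference smaller than these shifts, such as that of Dhcr7 in Th1 cells (-6.21 points), changes sign after centring. Of all calls in Th1 cells 21.1% were higher as measured and 38.5% after centring, and in Th2 cells 21.7% and 39.8%. Cutting each list to its strongest peaks at 1 covered length of 217 Mb gave 10 higher and 2 lower in Th1 cells and 9 higher and 1 lower in Th2 cells.

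The mevalonate branch runs from Acat2, which joins acetyl-CoA units, to Fdft1, which makes squalene. Of its 8 genes Fdft1 alone was called, in Th2 cells, where 4.26% of all genes were called higher. With so few genes this count is no result about the branch. Fdft1, at chr14:63145150-63181687, was covered over 70.6, 64.3 and 76.0% in the naive libraries, 93.8, 80.2 and 83.8% in the Th1 and 95.2, 97.7 and 95.4% in the Th2 libraries. All 6 cultured libraries lay above the 3 naive ones. The difference was 25.8 points (SE 4.00, limma adjusted p = 0.0008907) in Th2 and 15.6 points (SE 4.00, adjusted p = 0.01067) in Th1 cells. Fdft1 overlaps Ctsb, a cathepsin gene, so its peaks cannot be given to 1 gene. Its difference in Th2 cells was 22.8 points without naive replicate 2 and 24.96 without Th2 replicate 2, both under the minimum.

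Hmgcs1, the HMG-CoA synthase, was covered over 75.9, 64.0 and 81.2% in naive, 96.3, 94.7 and 95.2% in Th1 and 86.8, 83.1 and 95.6% in Th2 libraries. Every cultured library exceeded every naive one, but with 21.8 points (SE 4.68, adjusted p = 0.00468) in Th1 cells and 14.8 points (SE 4.68, adjusted p = 0.02669) in Th2 cells the difference stayed under 25 points. Idi1, which isomerises isopentenyl diphosphate, was covered over 50.3% ± 1.04 in naive, 68.4% ± 3.05 in Th1 cells and 67.7% ± 2.29 in Th2 cells (SD, n = 3), 18.1 and 17.5 points. Fdps, the farnesyl diphosphate synthase, averaged 74.3, 90.9 and 83.6% in naive, Th1 and Th2 cells, with adjusted p = 0.0171 for Th1 and 0.1288 for Th2 cells. The kinase Mvk lay lower in cultured cells, with 25.4% ± 5.99 in naive, 17% ± 0.584 in Th1 cells and 17.5% ± 2.49 in Th2 cells (adjusted p = 0.03443 and 0.04224).

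Acat2 and Pmvk, the second kinase of the branch, differed by no more than 3.21 points in any of the 3 comparisons, and none of these passed the test. Mvd, which makes isopentenyl diphosphate, was covered over 100% in 8 libraries and 90.9% in Th1 replicate 3, under a peak that also lay over Cyba. Its cover was at the ceiling, where a gain cannot be seen.

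Of the 10 genes from squalene to cholesterol 3 were called higher in Th1 cells and 3 in Th2 cells, and none lower against naive cells. Of all genes 4.38% were called higher and 16.3% lower in Th1 cells, and 4.26% and 15.4% in Th2 cells. With so few genes the absence of lower calls is no result about them. With no minimum difference 7 were higher and 1 (Dhcr7) lower in Th1 cells, where all genes gave 11.8% and 47.9%. In Th2 cells 5 were higher and 1 (Ebp) lower, where all genes gave 12.1% and 47.4%. Sqle, squalene monooxygenase, the first oxygen-using step, at chr15:59315092-59331193, was covered over 40.2, 38.4 and 48.0% in naive, 90.5, 81.9 and 90.3% in Th1 and 75.8, 78.6 and 72.8% in Th2 libraries. The 3 groups did not overlap. The difference from naive was 45.4 points (SE 3.38, limma adjusted p = 1.7e-05) in Th1 cells and 33.6 points (SE 3.38, adjusted p = 8.903e-05) in Th2 cells. In length this was 6.79 ± 0.827 kb of the gene in naive, 14.1 ± 0.784 kb in Th1 cells and 12.2 ± 0.461 kb in Th2 cells (SD, n = 3).

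Lss, lanosterol synthase, closes the squalene chain into the sterol rings and lies at chr10:76531565-76557139. Its cover was 14.0, 10.4 and 18.9% in naive, 61.8, 68.4 and 61.0% in Th1 and 56.0, 61.5 and 60.8% in Th2 libraries. Naive libraries lay far below the others, while Th1 and Th2 overlapped. The gains were 49.3 points (SE 3.03, limma adjusted p = 6.31e-06) in Th1 cells and 45.01 points (SE 3.03, adjusted p = 1.146e-05) in Th2 cells. The gene held 3.69 ± 1.08 kb of covered sequence in naive and 16.3 ± 1.03 kb in Th1 cells.

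Hsd17b7, a keto-reductase of the sterol demethylation complex, at chr1:169949535-169969242, had no peak in any naive library. It was covered over 16.8, 13.04 and 12.6% in the Th1 and 33.5, 31.5 and 34.2% in the Th2 libraries. The groups were separate, with Th2 highest. The difference from naive was 33.1 points (SE 1.25, limma adjusted p = 5.95e-07) in Th2 cells. In Th1 cells it was 14.1 points (adjusted p = 4.141e-05), under the minimum for a call. A list without a peak shows only that none was called at that library's depth.

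Sc5d, the sterol desaturase near the end of the pathway, at chr9:42251592-42264300, was covered over 57.9, 48.1 and 58.7% in naive, 91.8, 85.8 and 100% in Th1 and 73.7, 60.1 and 59.4% in Th2 libraries. The Th1 libraries stood above all others. The gain was 37.6 points (SE 5.29, limma adjusted p = 0.0005099) in Th1 cells. In Th2 cells the difference was 9.46 points (adjusted p = 0.1618).

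Between these enzymes, Cyp51, the lanosterol demethylase, averaged 61.8% ± 0.683 in naive, 83.1% ± 1.18 in Th1 cells and 79.3% ± 4.55 in Th2 cells (SD, n = 3), and its 21.3 and 17.4 points stayed under the minimum. Msmo1, the sterol methyl oxidase, averaged 67.7, 85.7 and 75.7%, with adjusted p = 0.006167 in Th1 cells and 0.1295 in Th2 cells. Nsdhl, the dehydrogenase of the same complex, averaged 15.0, 18.4 and 19.002%, small differences that passed the p threshold in both cell types. Ebp, the sterol isomerase, averaged 67.9, 59.0 and 50.7%, a difference of -17.3 points (adjusted p = 0.04257) in Th2 cells. Dhcr7, the last reductase, averaged 51.3, 45.04 and 48.4%. Tm7sf2, a reductase gene that overlaps Vps51, was covered over 81.4 to 100% and passed no test.

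**Figure D2:**
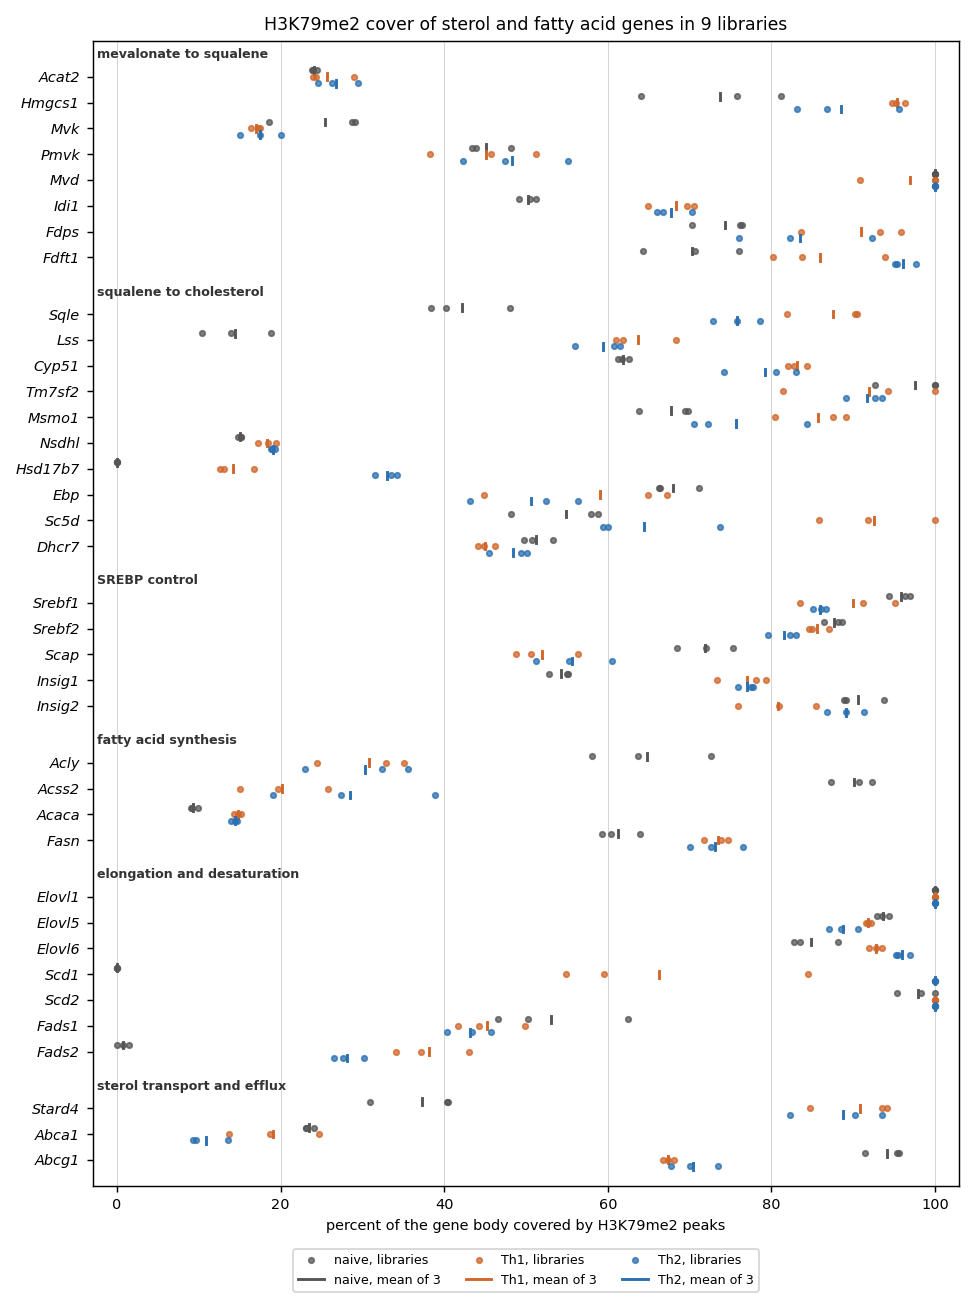
Percent of the gene body covered by H3K79me2 peaks (horizontal axis) in each of 9 libraries for the 37 genes, ordered by role. Points are libraries and bars are means of 3 libraries. Sqle, Lss, Scd1, Fads2 and Stard4 show naive points left of all others, and Acly, Acss2 and Abcg1 show them to the right.

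The genes that control SREBP did not pass the call rule in any comparison. With only 5 genes this lies near the shares of all genes called. Srebf2, which encodes the SREBP of the sterol enzymes, was covered over 79.6 to 88.6% of its length in all 9 libraries. Srebf1, the SREBP of fatty acid genes, was covered over 83.5 to 97.0%. Its surroundings differed: in the naive lists the widest peak on Srebf1 measured 121.2 to 122.1 kb and reached over Rai1, the gene it overlaps, and in Th1 and Th2 lists it measured 19.8 to 23.6 kb. Insig1, the retention protein that is itself an SREBP target, was covered over 54.96, 55.2 and 52.8% in naive, 79.4, 73.4 and 78.2% in Th1 and 75.9, 77.8 and 77.6% in Th2 libraries. Naive libraries were again apart, by 22.7 points (SE 1.80, limma adjusted p = 2.422e-05) in Th1 cells and 22.8 points (SE 1.80, adjusted p = 2.603e-05) in Th2 cells, under the minimum. Scap, the escort of SREBP, went the other way, from 71.9% ± 3.45 to 52% ± 3.96 in Th1 cells and 55.7% ± 4.63 in Th2 cells. Insig2 averaged 90.6, 80.8 and 89.1% in naive, Th1 and Th2 cells.

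Among the 4 genes that feed and run fatty acid synthesis, the 2 acetyl-CoA suppliers fell. Of all genes 16.3% were called lower in Th1 cells and 15.4% in Th2 cells. Acss2, acetyl-CoA synthetase, at chr2:155518043-155562743, was covered over 90.7, 87.3 and 92.3% in naive, 25.8, 15.1 and 19.7% in Th1 and 19.1, 27.4 and 38.9% in Th2 libraries. Naive libraries stood far above every other library. The difference was -69.9 points (SE 5.05, limma adjusted p = 1.457e-05) in Th1 cells and -61.6 points (SE 5.05, adjusted p = 3.092e-05) in Th2 cells. Peaks lay over 40.3 ± 1.13 kb of the gene in naive, 9.02 ± 2.4 kb in Th1 cells and 12.7 ± 4.44 kb in Th2 cells. The naive lists had 2 peaks on the gene and the others 6 to 11, the widest of them 2.37 to 4.9 kb.

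Acly, ATP citrate lyase, at chr11:100476352-100528000, was covered over 72.6, 63.7 and 58.0% in naive, 35.1, 24.4 and 32.8% in Th1 and 22.9, 35.6 and 32.3% in Th2 libraries. Naive libraries were above all others, and Th1 and Th2 overlapped. The difference was -34.0 points (SE 4.96, limma adjusted p = 0.0006234) in Th1 cells and -34.5 points (SE 4.96, adjusted p = 0.0005973) in Th2 cells. This call rested on weak peaks. When weaker peaks (-log10 q under 5) were dropped the differences were -6.97 and -7.69 points, and with lists cut to 1 covered length -2.799 and -7.69 points, none of them called.

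Fasn, the fatty acid synthase itself, averaged 61.2% ± 2.42 in naive, 73.5% ± 1.53 in Th1 cells and 73.1% ± 3.27 in Th2 cells (SD, n = 3), 12.3 and 11.9 points. Acaca, acetyl-CoA carboxylase, is annotated over 272 kb and overlaps Tada2a and Gm11437. Its percent was low, with 9.33% ± 0.465, 14.8% ± 0.453 and 14.4% ± 0.352 in naive, Th1 and Th2 cells. In length this was 25.4 ± 1.27, 40.2 ± 1.23 and 39.1 ± 0.958 kb. Both genes differed from naive in the direction opposite to Acss2 and Acly, with adjusted p = 0.001368 (Fasn) and 7.518e-05 (Acaca) in Th1 cells, and under the minimum of 25 points.

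Scd1, the desaturase that makes monounsaturated fatty acids, at chr19:44394450-44407709, showed the greatest difference of the 36 genes from naive to Th2 cells. No naive library had a peak on it. It was covered over 54.9, 84.4 and 59.5% in the Th1 libraries and over 100% in each Th2 library. The difference from naive was 66.3 points (SE 6.83, limma adjusted p = 9.68e-05) in Th1 cells and 100 points (SE 6.83, adjusted p = 1.251e-05) in Th2 cells. The naive and Th2 libraries have no spread, so that this error comes from the Th1 libraries and from the variance shared across genes. Its neighbour Scd2, a close relative of the same activity, was covered over 95.4 to 100% in all libraries. The peak over Scd2 was 14.6 to 26.5 kb wide in naive, 24.1 to 24.6 kb in Th1 and 66.7 to 67.0 kb in Th2 lists, where it reached Scd3 and Pkd2l1.

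Fads2, the desaturase that opens the synthesis of long polyunsaturated fatty acids, at chr19:10062765-10101503, was covered over 0.718, 0 and 1.47% in naive, 43.0, 34.1 and 37.2% in Th1 and 30.1, 27.6 and 26.5% in Th2 libraries. The 3 groups did not overlap. The gain was 37.4 points (SE 2.21, limma adjusted p = 5.27e-06) in Th1 cells and 27.4 points (SE 2.21, adjusted p = 2.886e-05) in Th2 cells. Fads1, the partner desaturase nearby, averaged 53.1, 45.3 and 43.1% and passed no test. The elongase Elovl6, which lengthens palmitate, averaged 84.8% ± 2.9 in naive, 92.8% ± 0.762 in Th1 cells and 95.9% ± 0.949 in Th2 cells. The Elovl6 differences of 7.96 and 11.1 points were under the minimum, and were called at 34.7 and 37.2 points when peaks of -log10 q under 5 were dropped and at 55.99 and 58.04 points with lists cut to 1 covered length. Elovl5 averaged 93.6, 91.9 and 88.7%. Elovl1, which overlaps Cdc20, was at 100% throughout.

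Of the transport genes, Stard4, a soluble carrier that moves cholesterol between membranes, was covered over 30.9, 40.4 and 40.5% in naive, 94.1, 93.6 and 84.7% in Th1 and 93.5, 82.3 and 90.3% in Th2 libraries. Naive libraries lay apart from the rest. The gain was 53.5 points (SE 4.15, limma adjusted p = 2.101e-05) in Th1 cells and 51.5 points (SE 4.15, adjusted p = 2.86e-05) in Th2 cells. Abcg1, an LXR target that exports sterols, at chr17:31057694-31117984, was covered over 95.6, 91.5 and 95.3% in naive, 66.7, 67.4 and 68.1% in Th1 and 67.7, 73.5 and 70.1% in Th2 libraries. It fell by 26.8 points (SE 1.79, limma adjusted p = 9.96e-06) in Th1 cells. In Th2 cells its difference of -23.7 points (adjusted p = 2.053e-05) was under the minimum. The Th2 difference was called when weaker peaks (-log10 q under 5) were dropped (-28.5 points), without naive replicate 2 (-25.05 points) and without Th2 replicate 2 (-25.3 points). After centring the Th1 difference was -18.5 points and no longer called. Abca1, the other LXR exporter, averaged 23.4% ± 0.524 in naive, 19% ± 5.45 in Th1 cells and 10.8% ± 2.34 in Th2 cells, with adjusted p = 0.1836 and 0.00378.

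**Figure D3:**
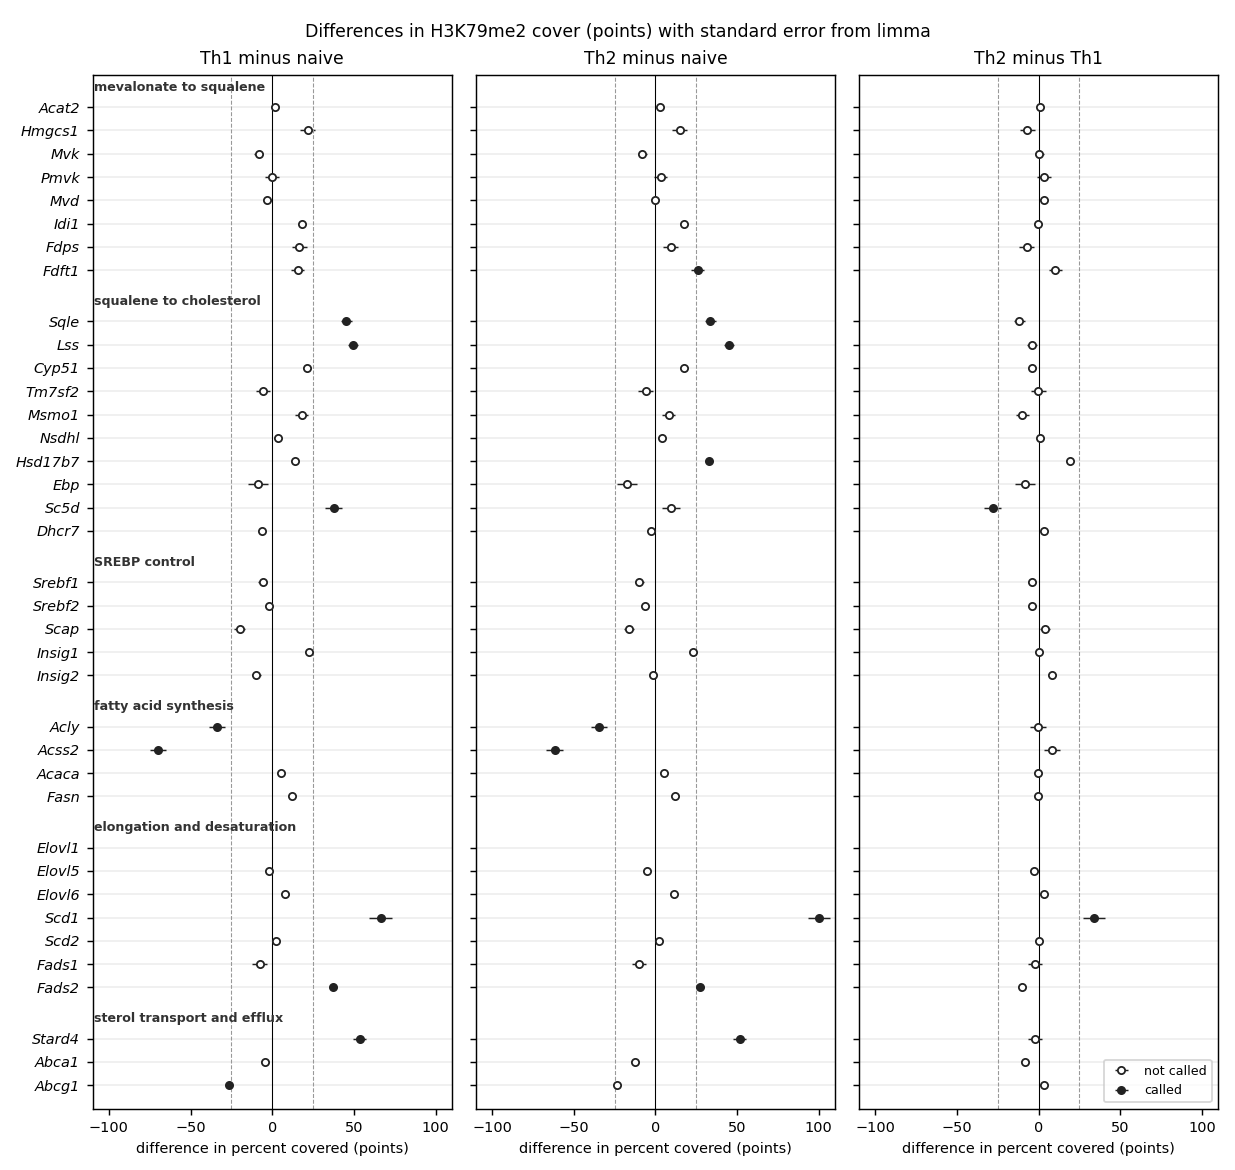
Difference in percent of the gene body covered (points, horizontal axis) for each tested gene in 3 comparisons, with standard errors from limma. Filled points are called, open points are not, and dashed lines mark 25 points in either direction. Filled points to the right include Scd1 at 100 points and Lss at 45.01 points in Th2 minus naive, and filled points to the left Acss2 at -61.6 and Acly at -34.5 points.

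The direct comparison of Th2 with Th1 cells asks where the 2 lineages part. Added cytokines and antibodies, reporter and sorting gate differ with the lineage and cannot be told apart from it. Scd1 was higher in Th2 cells by 33.7 points (SE 6.83, limma adjusted p = 0.01516) and Sc5d lower by 28.2 points on the means given above (a difference of -28.2, SE 5.29, adjusted p = 0.01093). Of all genes 2.08% were called higher and 1.56% lower, and the median difference was -0.39 points over the listed genes and 0.02 over all genes. Without a minimum difference Hsd17b7 and Scd1 were higher and Sc5d and Fads2 lower, where all genes gave 8.62% higher and 6.58% lower. Fads2 differed by -10.0 points (adjusted p = 0.02152) and Hsd17b7 by 18.9 points (adjusted p = 6.465e-05). Sqle missed the p threshold, with -11.8 points and adjusted p = 0.05707. Both calls were lost without Th1 replicate 3, with 30.3 points (adjusted p = 0.0506) for Scd1 and -24.47 points (adjusted p = 0.03336, under the minimum) for Sc5d. Scd1 was also not called with only the 6 libraries of the 2 groups in the fit (adjusted p = 0.05288), nor was Sc5d when peaks of -log10 q under 5 were dropped (-20.1 points).

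Where along the gene the cover lay was described for the 29 genes with a known strand, in 10 segments of equal length counted from its start. Over all partly covered genes the 5 segments nearest the start were covered over 70.5% in naive, 63.9% in Th1 cells and 63.8% in Th2 cells, and the 5 nearest the end over 41.6, 32.7 and 32.1%. Lss, Hsd17b7 and Fads2 had little or no naive cover beyond the first segments. In Lss the first segment was covered over 93.5% ± 11.3 in naive and 98.9% ± 1.99 in Th1 cells (SD, n = 3), and the fourth segment over 0% and 100%. In Hsd17b7 the cover reached the third segment over 3.01% ± 5.22 in Th1 cells and 94.1% ± 10.2 in Th2 cells, and neither passed the fourth. In Fads2 the first segment was covered over 4.22% ± 7.32 in naive, 100% in Th1 cells and 98.9% ± 0.784 in Th2 cells.

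Other members were already covered over most of the start in naive cells, and the difference lay mainly toward the end. In Insig1 and Cyp51 the start differed as well. Their 5 segments nearest the start were covered over 95.6 and 92.6% in naive cells and over 100% in Th1 and Th2 cells. Sc5d was covered over 98.7% or more of its 5 segments nearest the start in every group, and over 11.1% ± 9.66, 85.1% ± 14.2 and 28.8% ± 16.1 of the other 5 in naive, Th1 and Th2 cells. For Insig1 these 5 end segments gave 13% ± 0.886, 53.9% ± 6.39 and 54.1% ± 2.1. For Hmgcs1 they gave 47.4% ± 17.5, 90.9% ± 1.61 and 77% ± 12.9, and for Cyp51 31.1% ± 0.953, 66.2% ± 2.36 and 58.5% ± 9.11. In Insig1, Hmgcs1 and Cyp51 the domain ended further along the gene in cultured cells, and in Sc5d it did so in Th1 cells. For Sc5d in Th2 cells the spread was wide, and the difference over the whole gene passed no test (limma adjusted p = 0.1618).

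Among the genes with less cover in cultured cells, Acly and Scap differed little at the start, and Acss2, Ebp and, in Th1 cells, Insig2 had less cover there too. The first segment of Acss2 was covered over 95.2% ± 4.22 in naive, 78% ± 12.9 in Th1 cells and 82.6% ± 5.6 in Th2 cells, and the second segment over 100%, 0% and 7.79% ± 7.07. A second stretch remained in the fifth segment, at 61% ± 18.8 in Th1 cells and 66.6% ± 6.62 in Th2 cells. In Acly the first 2 segments were covered over 97.0% or more in every group, and the third over 67.8% ± 33.9, 22.3% ± 6.82 and 15.6% ± 13.6. Scap was covered over 99.8%, 89.8% and 93.8% in the 5 segments nearest the start and over 44.1, 14.1 and 17.6% in the others. Over the first 5 kb alone, Acly differed by -0.800 points in Th1 cells and 0.867 points in Th2 cells (adjusted p = 0.6706 in Th2), and Scap by -1.82 and -4.21 points. Acss2 stayed called there in Th1 cells, with -25.98 points (limma adjusted p = 0.01258), and its -20.9 points in Th2 cells were under the minimum. Insig2 in Th1 cells (-35.96 points, adjusted p = 0.007719) and Ebp in Th2 cells (-26.18 points, adjusted p = 0.02712) were called lower over the first 5 kb and not over the whole gene. The 5 segments nearest the start were covered over 46.8, 38.1 and 21.7% in Abca1 and 50.9, 34.1 and 34.96% in Mvk in naive, Th1 and Th2 cells, and the others over 0%.

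**Figure D4:**
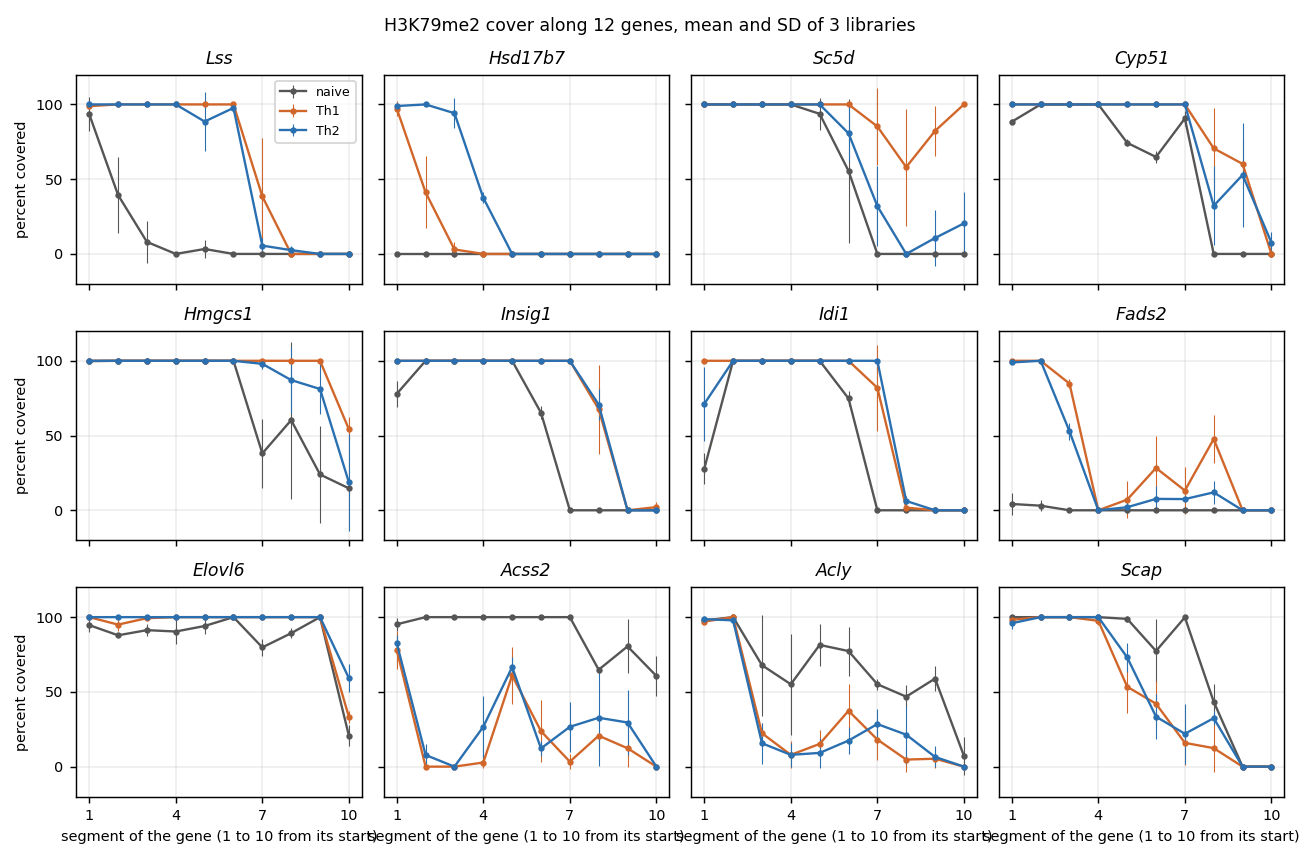
Percent covered (vertical axis) in each segment of the gene from its start (horizontal axis) for 12 genes of known strand, as mean and SD of 3 libraries in naive, Th1 and Th2 cells. Cover in Lss, Hsd17b7 and Fads2 spreads from the start, and cover in Sc5d, Cyp51, Hmgcs1 and Insig1 differs mainly toward the end. Acss2, Acly and Scap differ mainly beyond the first segment.

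The promoter windows were covered unevenly. The window of Sc5d lay under a peak in all 9 libraries. The windows of Insig1 and Cyp51 were covered over 0% in the 3 naive and over 100% in the 6 cultured libraries. The Fads2 window was at 0 in naive libraries, at 37.3, 33.0 and 100% in Th1 and at 0, 11.0 and 5.33% in Th2 libraries, so that its domain mostly began after the window. The Acss2 window was covered in naive replicate 2 alone.

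Genes next to these in lipid metabolism were described from 6 lists of 60 genes, of which 56 were tested. In Th1 against naive cells 2 were called higher and 11 lower, where all genes gave 4.38% and 16.3%, and the median was -9.43 points against -5.54 over all genes. In Th2 against naive cells 1 was called higher and 11 lower, where all genes gave 4.26% and 15.4%, with a median of -9.17 points against -5.50. In Th2 against Th1 cells 1 was called higher and 2 lower, where all genes gave 2.08% and 1.56%. These shares lie near those of all genes and are no result about the lists. Soat2, which esterifies cholesterol, rose from 0% in naive to 34.5% ± 5.59 in Th1 cells and 35.3% ± 7.96 in Th2 cells (SD, n = 3). Mbtps1, the protease that makes the first cut in SREBP, fell from 89.2% ± 3.44 to 31.7% ± 0.377 and 32.8% ± 2.11. Mylip, the LXR target that degrades the LDL receptor, fell from 94.0 to 62.2 and 60.0%, and Lipa, the lysosomal lipase, from 78.5 to 34.4 and 40.9%.

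In the isoprenoid branch Fntb, the farnesyltransferase subunit, fell from 97.0 to 56.5 and 63.1%, and Icmt, which methylates prenylated proteins, from 89.4 to 44.5 and 46.7%. Dhdds, of dolichol synthesis, fell from 45.5 to 19.1 and 16.6%. Coq2, of ubiquinone synthesis, averaged 85.2% in naive and 94.6% in Th1 cells and fell to 49.0% in Th2 cells (adjusted p = 0.0001391 against naive and 0.0002785 against Th1). The elongase Elovl7 fell from 62.1% ± 2.04 to 0.353% ± 0.0509 in Th1 cells and 0.498% ± 0.862 in Th2 cells. Of 9 glycerolipid synthesis genes 8 were tested, and none was called in any of the 3 comparisons. All genes gave 4.38% higher and 16.3% lower in Th1 and 4.26% and 15.4% in Th2 against naive cells. They gave 2.08% and 1.56% in Th2 against Th1 cells. With so few genes the absence of calls is no result about the list.

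The 10 genes of the fatty acid oxidation list, the catabolic counterpart, had medians of -19.6 points in Th1 cells and -12.7 points in Th2 cells. Over all genes the medians were -5.54 and -5.50 points. In Th1 cells 1 was called higher and 3 lower, where all genes gave 4.38% and 16.3%. In Th2 cells 0 were called higher and 3 lower, where all genes gave 4.26% and 15.4%. With so few genes these counts are no result about the list. Acadm, Hadhb and the carnitine carrier Slc25a20 fell in both cell types, Acadm from 54.7% ± 1.76 to 15.9% ± 4.84 and 24% ± 2.99. Acadl, the long-chain dehydrogenase, was the exception in Th1 cells, with 37.6% ± 4.27 in naive, 85.2% ± 2.75 in Th1 cells and 25.8% ± 1.72 in Th2 cells. It rose in Th1 cells (adjusted p = 3.311e-06) and was called lower in Th2 than in Th1 cells (adjusted p = 7.303e-06). Rxra, the partner of LXR, averaged 71.9, 41.8 and 80.6% with an SD of 20.1 points in Th1 cells, where its 3 libraries gave 61.8, 41.8 and 21.7%. Rxra was called lower in Th1 than in naive cells and higher in Th2 than in Th1 cells.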

How the data were processed

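The assay was chromatin immunoprecipitation with an H3K79me2 antibody, followed by sequencing, in 9 libraries. The authors deposited 1 broad peak list per library on mm10. MACS2, Bowtie2, SAMtools and Picard are named in the submitters' processing notes. Their versions and settings, and the use of the inputs, are not given in the sources used here. The deposited lists give each peak a score, a fold enrichment (a ratio to background), a −log10 p value and a −log10 q value. These are the authors' values for a peak within its own list and were used only to describe, rank or filter peaks of that list. The columns of the lists give no read counts, so depth and counting error are unknown.

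Peaks of a library were merged, and the percent of each of 21631 protein-coding gene bodies (chromosomes 1 to 19 and X, GRCm38.p6 gene table) under them was computed with Python 3.11.15. Of these genes 3841 (17.8%) overlap another, and their peaks cannot be assigned to 1 gene. Percents were compared in limma 3.58.1 (R 4.3.3; functions lmFit and eBayes, the latter with its trend option) by fitting all 9 libraries together with 6 residual degrees of freedom, 2-sided, over the 11600 genes that did not have the same value in all libraries. Adjusted p-values are Benjamini-Hochberg over those genes. A percent is bounded at 0 and 100, so that a mean within 25 points of a bound cannot be called toward it. Tested on simulated data, for the Th1 and naive libraries (11588 genes, 100 moved up and 100 down by 40 points) 94% and 96% were recovered with 3 false calls. Genes moved up were drawn from those of low cover and genes moved down from those of high cover. All other genes kept the same mean in every group, with independent normal errors. The simulation therefore cannot show how calls behave near a bound or under the larger covered length of the naive lists. Errors are SD over 3 libraries unless SE is stated. Strand, from the promoter table, was known for 29 of the 37 genes.

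All 37 genes are named, called ones with every library's value, and of the 60 other pathway genes only called ones. The genes, lists and markers were chosen with earlier results of these data known. Alternatives were a q filter, lists cut to 1 covered length, joined gaps, no filter on genes, centring, the first 5 kb of the gene, the arcsine scale, 2 groups only, no minimum difference, a replicate block and leaving out each library. The value of 1 marker gene is not reported here.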

Additional observations from a re-analysis of the deposited data

Results flagged for a closer look

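By the test of the difference itself (Th2 minus Th1 in limma), 4 of the 36 tested genes differed at an adjusted p under 0.05. These changed from naive cells by different amounts in the 2 lineages, and 2 of them, Scd1 and Sc5d, by 25 points or more. The others were Hsd17b7 (18.9 points, adjusted p = 6.465e-05) and Fads2 (-10.0 points, adjusted p = 0.02152). Of all genes 8.62% were higher and 6.58% lower at that threshold, and 2.08% and 1.56% with the minimum of 25 points. The counts of listed genes lie near these shares and are no result about the list. For Scd1 the change in Th2 cells exceeded that in Th1 cells by 33.71 points (adjusted p = 0.01516), with 100% covered in all 3 Th2 libraries. For Sc5d it differed by -28.18 points (adjusted p = 0.01093), with Th1 the higher. Neither difference was called without Th1 replicate 3, where they were 30.3 and -24.47 points. The Scd1 value is limited by the ceiling of 100% in Th2 cells.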

How the results depend on the processing

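In Th1 against naive cells the 6 listed genes called higher became 10 with lists cut to 1 covered length, 11 after centring, 18 with no minimum difference and 3 (of 23 tested) over the first 5 kb, and the 3 called lower became 7 with no minimum. All genes called higher (508) became 817 at 1 covered length and 1369 with no minimum, and those called lower (1895) became 1032, 1175 after centring, 1077 over the first 5 kb and 5552 with no minimum. In Th2 against naive cells the 7 called higher became 3 over the first 5 kb and 15 with no minimum, and the 2 called lower 1 at 1 covered length, 1 over the first 5 kb and 10 with no minimum. All genes there gave 756 (1 covered length) and 1405 (no minimum) higher in place of 494, and 1095, 1118 (centred), 914 (first 5 kb) and 5504 (no minimum) lower in place of 1781. In Th2 against Th1 cells the 1 gene called higher became 0 with gaps under 1 kb joined or only 2 groups fitted and 2 with no minimum, and the 1 called lower 0 at -log10 q of at least 5, 0 over the first 5 kb and 2 with no minimum. All genes there gave 144 higher at -log10 q of at least 5 and 1000 with no minimum in place of 241, and 763 lower with no minimum in place of 181. The causes were not tested, apart from the fewer genes and the lower bar that these settings set by construction. Leaving out 1 library gave 6 to 7 genes higher and 3 lower in Th1, 6 to 7 higher and 2 to 3 lower in Th2, and 0 to 1 higher and 0 to 1 lower between Th2 and Th1 cells.

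Sqle, Lss, Sc5d, Scd1, Fads2, Stard4 and Acss2 in Th1 cells were called under every alternative in which they were tested. So were Hsd17b7, Sqle, Lss, Scd1, Fads2 and Stard4 in Th2 cells. For Sc5d in Th1 cells the lowest difference among the alternatives was 25.3 points, close to the minimum. The Acly difference in Th2 cells reversed to 0.867 points over the first 5 kb. Centring brought Hmgcs1, Cyp51, Idi1 and Insig1, among others, past the minimum in Th1 cells. Depth is unknown, so weak or absent peaks cannot be told from shallow libraries.

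The replicate numbers of the labels were fitted as a block. Deviations of cover from the group means were not shared by same-numbered libraries (correlations of -0.075 to 0.001 over 9 pairs, against -0.026 to 0.070 over 18 other pairs). Such correlations cannot show whether same-numbered libraries share an animal or a batch, and the labels do not say. With the block 6 genes were higher and 3 lower in Th1, 7 and 2 in Th2, and 1 and 1 between Th2 and Th1 cells.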

Other observations

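The desaturase cluster on chromosome 19 was looked at after its values were seen. Scd4, at 44333326 to 44346743 and between Scd2 and Scd1, had no peak in any of the 9 libraries. Scd3, annotated over 44203288 to 44244016, was covered over 0% in naive, 3.29% ± 0.906 in Th1 cells and 7.19% ± 0.852 in Th2 cells (SD, n = 3), which was 2.93 ± 0.347 kb of its end next to Scd2 in Th2 cells. In Th2 lists the wide domain over Scd2 and the peak over Scd1 thus lay on either side of a gene without a called peak.

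The strongest peak on Srebf1 stood at percentile 98.97 or above of fold enrichment within its own list in each library. The strongest peak on Acss2 stood at percentiles 83.3 to 85.7 in naive lists and 66.3 to 78.4 in the Th1 and Th2 lists. For Fads2 the strongest naive peaks stood at percentiles 3.58 and 5.31 of their lists. Ranks come from lists of different length, so a difference in rank between groups cannot be read as a change of the mark.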
